A study of Mus musculus with 31 samples.

Results

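The genes described here cut, protect or crosslink the extracellular matrix: matrix metalloproteases (Mmp), their tissue inhibitors (Timp), secreted proteases of the ADAMTS group (Adamts), the related ADAMTS-like glycoproteins (Adamtsl) and the lysyl oxidases (Lox). They were chosen by gene symbol alone, as every gene of the deposited tables named Mmp, Timp, Adamts, Adamtsl, Lox or Loxl with a family number. The rule found 56 of the 38283 genes listed: 23 Mmp, 4 Timp, 19 Adamts, 5 Adamtsl and 5 lysyl oxidase genes. A group mean of at least 5 FPKM (fragments per kilobase of transcript, scaled to the mapped fragments of the library) in 1 or more groups was reached by 37 members, namely 10 Mmp, 3 Timp, 15 Adamts, 4 Adamtsl and all 5 lysyl oxidase genes. Group means stayed below 1 FPKM in all 6 groups for 10 members, 3 of which (Mmp1a, Mmp1b and Mmp3) were listed at 0 in every library.

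RNA was sequenced from pancreata of C57BL/6 mice at postnatal day 2, after fluorescence-activated sorting of dissociated cells into YFP-positive mesenchymal and YFP-negative non-mesenchymal fractions. All 6 groups with values carry the Nkx3.2-Cre allele, whose Cre recombinase is active in pancreatic mesenchyme, so the controls carry Cre too. In the H19DMD model the controls are H19DMD+/+; Nkx3.2+/Cre (3 mesenchymal and 3 non-mesenchymal libraries), and the mutants are H19DMDfl/+; Nkx3.2+/Cre (4 and 4 libraries). H19DMD is the imprinting control region of the Igf2 and H19 genes, and the series describes this model as overexpression of Igf2 in mesenchyme. In the Igf2 model the non-mesenchymal controls are Igf2+/+; Nkx3.2Cre/+ (4 libraries), and the mutants, with Igf2 deleted in mesenchyme, are Igf2+/fl; Nkx3.2Cre/+ (3 libraries). The mesenchymal libraries of the Igf2 model were not analysed here. Nothing in the labels says whether a library came from 1 mouse or from pooled pancreata, so p-values measure the spread between these libraries only. The labels place recombination in mesenchyme, and the non-mesenchymal cells carry the floxed alleles too.

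Matrix metalloproteases are zinc endopeptidases made as inactive precursors. The secreted gelatinases (Mmp2, Mmp9) cut denatured and basement membrane collagen, the collagenases (Mmp8, Mmp13) cut fibrillar collagen, and the membrane-bound forms (Mmp14, Mmp15, Mmp16) act at the cell surface, where Mmp14 together with Timp2 activates the Mmp2 precursor. Tissue inhibitors block the active proteases, and Timp3, which binds to the matrix, also blocks ADAMTS enzymes. ADAMTS proteases cleave proteoglycans such as versican (Adamts1, Adamts4, Adamts5, Adamts9), trim procollagen (Adamts2, Adamts3, Adamts14) or act on microfibrils (Adamts10). ADAMTS-like proteins have no protease domain and bind the matrix. Lysyl oxidases crosslink collagen and elastin.

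The Mmp genes were not placed evenly in the genome. In GRCm38, 10 of them (Mmp13, Mmp12, Mmp1b, Mmp3, Mmp1a, Mmp10, Mmp8, Mmp27, Mmp20 and Mmp7) lie in 427.1 kb of chromosome 9, between positions 7272514 and 7699585. Of these 10, only Mmp13, Mmp12, Mmp8 and Mmp7 reached 1 FPKM in any library, whereas 12 of the 13 Mmp genes elsewhere did. Mmp1a is annotated as a polymorphic pseudogene, and the other 55 members as protein-coding. RefSeq promoters (GRCm38.p6) were found for 37 of the 56 members, and the 250 bases before each start were searched on both strands for a TATA box (letters TATAAA), the AP-1 consensus (letters TGANTCA), a GC box (letters GGGCGG) and a CCAAT box. A TATA box and an AP-1 consensus stood together in 7 of the 12 promoters of the cluster (10 genes, 2 of them with 2 promoters) and in 0 of the 28 promoters of other members (27 genes), against 1.21% of 32851 promoters in the table. A GC box stood in 0 of those 12 promoters and in 21 of those 28, against 32.7% of all promoters. Of all promoters 12.4% held a TATA box, 6.7% the AP-1 consensus and 33.8% a CCAAT box. Promoters of both kinds are printed here to show the difference, those of Mmp3 and Mmp13 from the cluster, listed at 0 in every mesenchymal library, and those of Mmp14 and Adamts1, both among the most abundant members. Capitals mark an AP-1 consensus followed by a TATA box in Mmp3 and Mmp13, CCAAT boxes on the other strand and GC boxes in Mmp14 (the last CCAAT box overlaps a GC box), and GC boxes with a TATA box in Adamts1. The windows are chr9:7445572-7445821 and chr9:7272264-7272513 on the plus strand, chr14:54431348-54431597 on the plus strand and chr16:85803114-85803363 on the minus strand.
Mmp3: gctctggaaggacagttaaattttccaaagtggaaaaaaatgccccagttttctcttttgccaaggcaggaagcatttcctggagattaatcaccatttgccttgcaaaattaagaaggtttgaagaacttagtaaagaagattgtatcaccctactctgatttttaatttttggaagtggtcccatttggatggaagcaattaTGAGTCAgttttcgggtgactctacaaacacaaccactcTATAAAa
Mmp13: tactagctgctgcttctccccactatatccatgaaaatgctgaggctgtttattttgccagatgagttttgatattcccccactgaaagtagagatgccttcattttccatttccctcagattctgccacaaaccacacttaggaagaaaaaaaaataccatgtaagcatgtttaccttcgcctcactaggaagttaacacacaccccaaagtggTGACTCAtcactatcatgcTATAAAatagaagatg
Mmp14: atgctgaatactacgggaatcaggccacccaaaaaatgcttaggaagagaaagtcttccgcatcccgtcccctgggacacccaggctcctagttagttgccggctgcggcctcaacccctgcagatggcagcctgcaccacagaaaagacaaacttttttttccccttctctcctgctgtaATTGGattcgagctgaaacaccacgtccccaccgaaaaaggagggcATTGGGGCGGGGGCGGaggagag
Adamts1: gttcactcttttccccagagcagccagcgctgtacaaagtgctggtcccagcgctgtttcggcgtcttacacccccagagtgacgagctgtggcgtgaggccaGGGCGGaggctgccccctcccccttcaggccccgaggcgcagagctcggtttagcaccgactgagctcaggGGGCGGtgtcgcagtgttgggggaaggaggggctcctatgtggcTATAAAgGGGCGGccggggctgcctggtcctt
A match of letters is a description of the sequence, and no factor's binding was measured. The relation of these motifs to RNA level was not tested. The 7 members with both a TATA box and an AP-1 consensus were at 0.112 FPKM or less in mesenchymal libraries. Mmp8, with neither in its promoter, was also listed at 0 there. Mmp12, with an AP-1 consensus in 1 promoter, was at 3.82 to 9.37 FPKM there.

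Mesenchymal and acinar markers separated the fractions as labelled. The summed FPKM of 10 mesenchymal markers was 5533 to 7118 in the 7 mesenchymal libraries, 161 to 283 in the 7 non-mesenchymal libraries of the H19DMD model and 220 to 448 in those of the Igf2 model. The acinar marker sum was 548 to 1720 in mesenchymal libraries, and 37765 to 101970 and 28347 to 95018 in the non-mesenchymal libraries of the H19DMD and Igf2 models. Other markers were also higher in the mesenchymal fraction of H19DMD controls by limma: 7 of 7 of smooth muscle and pericytes (483 to 820 against 13.7 to 17.1 FPKM summed), 4 of 5 of mesothelium (149 to 331 against 37.7 to 53.4 FPKM) and 2 of 7 of endothelium (55 to 67.1 against 17.8 to 34.9 FPKM). Most of the non-mesenchymal mesothelial sum was Krt19, at 29.8 to 50.6 FPKM, which was also on the ductal list. The part of these lists in the fraction differences of the members was not tested. Igf2 itself was 3648 to 4024 FPKM in the mesenchymal H19DMD controls and 6162 to 7923 FPKM in the mutants, and H19 was 2437 to 2454 and 565 to 835 FPKM. In the non-mesenchymal fraction Igf2 was 45.2 to 53.2 FPKM in H19DMD controls and 45.4 to 157 FPKM in mutants, and 71.5 to 144 and 25 to 147 FPKM in Igf2 controls and mutants, with overlap in both models. Recombination in that fraction was not measured. The libraries listed 17476 to 20918 genes above 0, and their read depth is unknown because the values are FPKM. Both models were sequenced and normalised separately, so levels set side by side across them were not tested. In such bulk fractions fewer cells of a type and less RNA per cell cannot be told apart.

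**Figure D1:**
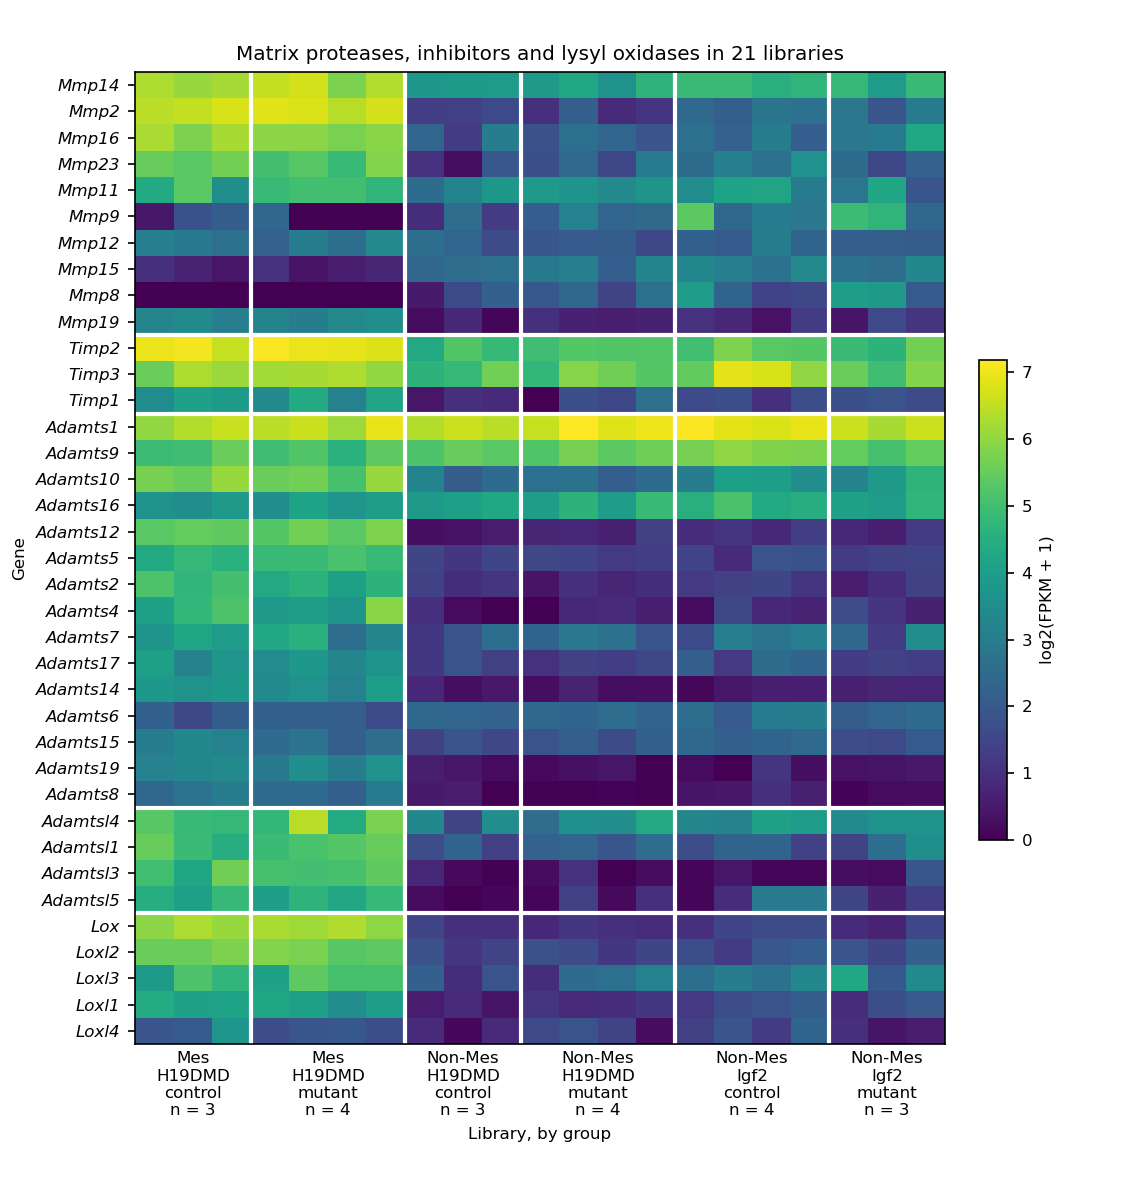
Level of the 37 members with a group mean of at least 5 FPKM (rows, by family) in 21 libraries (columns, by group), as log2(FPKM + 1). Most rows are bright in the 7 mesenchymal libraries and dark in the others, whereas Adamts1, Adamts9 and Adamts16 have like shades in all 6 groups and Mmp8 and Mmp15 are brighter in non-mesenchymal libraries.

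The first comparison was between the sorted fractions of the H19DMD model. Most of these genes were higher in mesenchymal cells: in controls, 28 of the 39 tested members were higher and 1, Mmp15, was lower at an adjusted p under 0.05 (limma on log2(FPKM + 1), Benjamini-Hochberg over all genes), where 12.4% of the 16732 genes tested were higher and 10.3% were lower (22.6% in all). By family, 6 of 11 Mmp, 2 of 3 Timp, 12 of 16 Adamts, 4 of 4 Adamtsl and 4 of 5 lysyl oxidase genes were higher. The median difference of the tested members was 2.37 on the log2 scale, against 0.08 over all genes. In mutants, 27 of 38 tested members were higher and 3 (Mmp15, Mmp8 and Mmp9) were lower, where 13.5% and 15.1% of 16767 genes were (28.6% in all), and the medians were 2.40 and -0.03. In both genotypes 25 members passed the test, each with the same direction. Among the members tested were 15 in controls and 13 in mutants whose mean in 1 fraction was under the filter of 1 FPKM, and these could pass only by being high in the other fraction, so the counts and medians describe the tested members and not all 56. With 3 libraries against 3 an exact two-sided permutation test cannot go below p = 0.1, and with 4 libraries in 1 group and 3 or 4 in the other not below 0.0286.

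**Figure D2:**
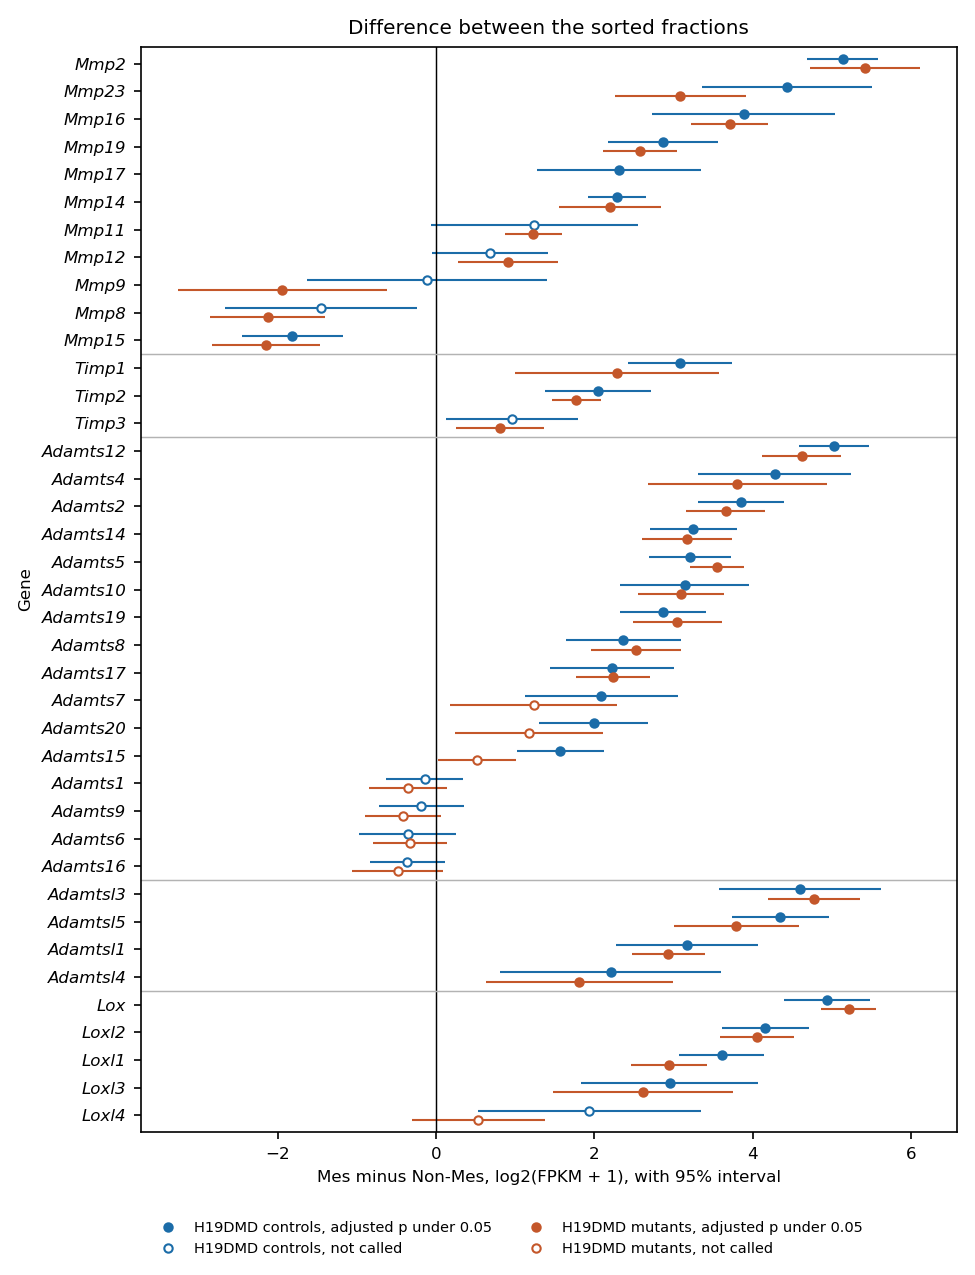
Difference between mesenchymal and non-mesenchymal cells for each tested member, in H19DMD controls (blue) and mutants (orange), on the log2(FPKM + 1) scale with 95% intervals. Filled points had an adjusted p under 0.05. The points lie right of 0 for most members, near 0 for Adamts1, Adamts9, Adamts6 and Adamts16, and left of 0 for Mmp8 and Mmp15 in both genotypes and for Mmp9 in mutants.

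Gelatinase Mmp2 was among the most mesenchymal of the proteases. It was at 85.2, 90.8 and 107 FPKM in mesenchymal controls and 113, 110.2, 84.6 and 104 FPKM in mesenchymal mutants. Non-mesenchymal libraries held 1.45, 1.59 and 2.07 FPKM in H19DMD controls and 0.940, 3.54, 0.809 and 1.11 FPKM in H19DMD mutants. Those of the Igf2 model held 4.46, 3.56, 5.80 and 5.55 FPKM in controls and 6.22, 2.82 and 6.67 FPKM in mutants. Every mesenchymal library stood far above every non-mesenchymal one, with a difference of 5.14 ± 0.18 (SE) in controls (adjusted p = 8.33e-05, limma) and 5.42 ± 0.30 in mutants (adjusted p = 7.73e-06, limma).

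Mmp14, the membrane-bound activator of Mmp2, was present in both fractions. It was at 77.5, 65.8 and 72.7 FPKM in mesenchymal controls and 91.0, 102, 53.3 and 80.3 FPKM in mesenchymal mutants. In non-mesenchymal cells it was at 13.2, 14.2 and 14.4 FPKM in H19DMD controls and 13.5, 18.8, 12 and 24.7 FPKM in mutants. The Igf2 model gave 28.7, 29.0, 21.9 and 25.1 FPKM in controls and 26.8, 14.7 and 28.0 FPKM in mutants. Fractions did not overlap, and the difference of 2.29 ± 0.15 in controls (adjusted p = 0.000309, limma) was smaller than that of Mmp2, though the difference between these genes was not tested.

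Mmp16, a related membrane-bound protease, was at 76.3, 53.8 and 74.6 FPKM in mesenchymal controls and 60.5, 60.3, 52.5 and 58.5 FPKM in mesenchymal mutants. Non-mesenchymal values were 4.09, 1.36 and 7.25 FPKM in H19DMD controls and 2.43, 5.21, 4.10 and 2.74 FPKM in mutants. Igf2-model libraries held 5.20, 3.79, 7.16 and 3.45 FPKM in controls and 6.18, 6.99 and 18.8 FPKM in mutants, of which the third mutant library was the highest non-mesenchymal value. The fraction difference was 3.89 ± 0.47 in controls (adjusted p = 0.00253, limma).

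Other Mmp genes with higher mesenchymal levels were Mmp23, at 45 ± 5.47 against 1.38 ± 1.38 FPKM (SD, n = 3 and 3) in controls, and Mmp19, at 8.61 ± 1.21 against 0.345 ± 0.378 FPKM. Of the exon bases of Mmp19, 22.3% overlap Tmem198b on the opposite strand, and whether strand was used in counting is not given in the sources used here. Mmp11 (stromelysin-3) was at 23.5 ± 14.6 against 8.75 ± 4.06 FPKM in controls, which did not pass (adjusted p = 0.162; 0.0329 with all groups of the table in 1 fit), and at 28.9 ± 2.84 against 11.8 ± 1.74 FPKM in mutants, which did (adjusted p = 0.000611, limma). Mmp12, the macrophage elastase, was at 6.44 ± 1.09 against 3.77 ± 1.47 FPKM in controls (adjusted p = 0.17) and 6.33 ± 2.42 against 2.80 ± 0.61 FPKM in mutants (adjusted p = 0.0397, limma). Its call in mutants was lost on leaving out any 1 library other than the first mesenchymal mutant, with an adjusted p of at most 0.102, and also at a pseudocount of 5, with no filter and with the replicate block. Of 7 macrophage markers 6 were lower in the mesenchymal fraction of each genotype by limma. Their sum was 15.8 to 29.0 FPKM in mesenchymal and 151 to 360.5 FPKM in non-mesenchymal controls. The source of Mmp12 RNA was not tested.

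Mmp15, the membrane-bound relative of Mmp14, went the other way. It averaged 0.654 ± 0.315 FPKM in mesenchymal controls and 4.78 ± 0.58 FPKM in non-mesenchymal controls, a difference of -1.82 ± 0.26 (adjusted p = 0.00464, limma). In mutants it averaged 0.638 ± 0.330 against 6.45 ± 2.18 FPKM (adjusted p = 0.000925, limma), and in the Igf2 model 7.83 ± 1.77 FPKM in controls and 6.5 ± 2.22 FPKM in mutants (n = 4 and 3).

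Among the inhibitors, Timp2 was the most abundant member in mesenchymal cells. It was at 125, 131 and 92.0 FPKM in mesenchymal controls and 139, 125, 121 and 111 FPKM in mesenchymal mutants. In non-mesenchymal cells it was at 19.7, 36.5 and 27.3 FPKM in H19DMD controls and 30.6, 38.1, 36.3 and 37.4 FPKM in mutants. The Igf2 model gave 31.0, 54.1, 39.4 and 38.0 FPKM in controls and 28.8, 24.1 and 49.7 FPKM in mutants. The fractions did not overlap, with differences of 2.05 ± 0.28 in controls (adjusted p = 0.00375, limma) and 1.77 ± 0.13 in mutants (adjusted p = 3.28e-05, limma).

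Timp3, the matrix-bound inhibitor, was spread over both fractions. It was at 46.7, 77.8 and 68.0 FPKM in mesenchymal controls and 72, 74.2, 79.5 and 63.8 FPKM in mesenchymal mutants. Non-mesenchymal H19DMD libraries held 24.1, 26.9 and 49.6 FPKM in controls and 25.8, 57.8, 48.6 and 38.2 FPKM in mutants. Those of the Igf2 model held 43.1, 118, 106 and 62.1 FPKM in controls and 45.8, 30.3 and 56.9 FPKM in mutants. The fractions overlapped in controls, where the difference of 0.96 ± 0.34 did not pass (adjusted p = 0.103, limma). They did not overlap in mutants (0.81 ± 0.24, adjusted p = 0.0389, limma), and that call was lost on leaving out any 1 library other than the second non-mesenchymal mutant, with an adjusted p of at most 0.0917, and also without the variance trend and with the replicate block. In controls it passed without the third non-mesenchymal library, at 49.6 FPKM the highest of its group (adjusted p = 0.0377, limma), and with all groups of the table in 1 fit. Of the exon bases of Timp3, 21.3% overlap Syn3 on the opposite strand.

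Timp1 was at 10.2, 16.3 and 14.1 FPKM in mesenchymal controls and 9.54, 19.8, 7.84 and 17.4 FPKM in mesenchymal mutants. Non-mesenchymal H19DMD libraries held 0.358, 0.971 and 0.808 FPKM in controls and 0, 2.37, 1.97 and 5.33 FPKM in mutants, and those of the Igf2 model 0.951 to 2.56 FPKM. The difference was 3.08 ± 0.27 in controls (adjusted p = 0.000764, limma) and 2.29 ± 0.56 in mutants (adjusted p = 0.0168, limma), where the call was lost at a pseudocount of 0.1 (adjusted p = 0.0593). Timp4 averaged under 3 FPKM in every group.

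Summed FPKM of the Timp genes divided by that of the Mmp genes was 0.596 ± 0.112 in mesenchymal controls, 0.646 ± 0.097 in mesenchymal mutants, 1.36 ± 0.11 in non-mesenchymal H19DMD controls and 1.43 ± 0.42 in non-mesenchymal H19DMD mutants (SD). In H19DMD controls this ratio ran from 0.513 to 0.722 in mesenchymal and from 1.23 to 1.43 in non-mesenchymal libraries, with no overlap. In the Igf2 model it was 1.46 ± 0.66 in controls and 0.843 ± 0.380 in mutants, with overlapping ranges. The ratio is a description of RNA levels over the members and was not tested.

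Within the ADAMTS family, the proteoglycan-cleaving Adamts1 and Adamts9 were abundant in both fractions. Adamts1 was at 64.3, 81.3 and 94.7 FPKM in mesenchymal controls and 85.3, 96.2, 69.2 and 123 FPKM in mesenchymal mutants. It was at 80.2, 98.0 and 85.4 FPKM in non-mesenchymal H19DMD controls and 92.4, 144, 113 and 127 FPKM in mutants. In the Igf2 model it was at 139, 118, 109 and 122 FPKM in controls and 98.2, 74.6 and 97.5 FPKM in mutants. Fractions overlapped in both genotypes, with differences of -0.15 (95% interval -0.63 to 0.34, adjusted p = 0.65, limma) and -0.36 (-0.86 to 0.13, adjusted p = 0.256, limma). Without the first mesenchymal control the value in controls was 0.003.

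Adamts9 was at 29.5, 30.9 and 45.1 FPKM in mesenchymal controls and 30.3, 36.9, 23.0 and 41.5 FPKM in mesenchymal mutants. Non-mesenchymal H19DMD libraries held 34.9, 44.4 and 39.8 FPKM in controls and 36.2, 50.8, 40.3 and 47.7 FPKM in mutants. Igf2-model libraries held 51.8, 62.8, 55 and 53.6 FPKM in controls and 44.0, 33.4 and 43.6 FPKM in mutants. The fractions overlapped, with differences of -0.19 (-0.73 to 0.35) in controls and -0.42 (-0.91 to 0.07) in mutants (adjusted p = 0.59 and 0.182, limma). Adamts16 averaged 12.1 ± 1.55 against 15.9 ± 2.39 FPKM and Adamts6 2.98 ± 0.92 against 4.02 ± 0.23 FPKM in controls, neither past the threshold. Adamts6 was lower in mesenchymal cells without overlap, at 1.93 to 3.67 against 3.78 to 4.24 FPKM in controls. In mutants it was at 2.08 to 3.73 against 3.86 to 4.93 FPKM, also without overlap and not past the threshold.

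The other 5 proteoglycan-cleaving members were higher in mesenchymal cells of controls. In controls Adamts4 averaged 25.8 ± 9.41 against 0.387 ± 0.544 FPKM, Adamts5 23.1 ± 3.40 against 1.62 ± 0.38 FPKM, Adamts8 5.69 ± 1.34 against 0.300 ± 0.260 FPKM and Adamts15 8.08 ± 1.09 against 2.08 ± 0.54 FPKM. Adamts20, under 5 FPKM in every group, averaged 3.54 against 0.140 FPKM. All 5 passed the test in controls, with adjusted p from 0.000321 for Adamts5 to 0.00481 for Adamts15 (limma). In mutants Adamts4, Adamts5 and Adamts8 passed, and Adamts15 (0.52 ± 0.21, adjusted p = 0.112, limma) and Adamts20 (1.17 ± 0.41, adjusted p = 0.0656, limma) did not.

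The procollagen N-proteinases Adamts2 and Adamts14, which trim the amino end of fibrillar procollagen, averaged 31.0 ± 5.09 against 1.21 ± 0.35 FPKM and 12.7 ± 0.79 against 0.448 ± 0.269 FPKM in controls (adjusted p = 0.000206 and 0.000366, limma). Of the pair that cleaves cartilage oligomeric matrix protein, Adamts12 averaged 42.0 ± 2.33 against 0.321 ± 0.155 FPKM, one of the largest differences of the family (5.03 ± 0.18, adjusted p = 8.33e-05, limma), and Adamts7 14.8 ± 2.75 against 3.01 ± 1.93 FPKM (adjusted p = 0.0134, limma; 0.0507 without the second mesenchymal control).

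Adamts10, a microfibril-associated member, was at 50.9, 44.6 and 66.4 FPKM in mesenchymal controls and 45.8, 49.3, 33.1 and 66.2 FPKM in mesenchymal mutants. It was at 8.43, 3.34 and 4.67 FPKM in non-mesenchymal H19DMD controls and 5.16, 5.52, 3.39 and 4.71 FPKM in mutants. Igf2-model libraries held 7.19, 15.5, 14.9 and 10.5 FPKM in controls and 8.34, 13.8 and 24.3 FPKM in mutants. The difference between fractions was 3.14 ± 0.33 in controls (adjusted p = 0.00151, limma). Adamts17 averaged 12.3 ± 3.90 against 1.83 ± 0.75 FPKM and Adamts19 8.75 ± 0.65 against 0.343 ± 0.184 FPKM in controls, and both passed.

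All ADAMTS-like genes that were tested were higher in mesenchymal cells of the H19DMD model. Adamtsl1 was at 44.6, 28.7 and 21.2 FPKM in mesenchymal controls and 28.8, 33.6, 37.9 and 44.8 FPKM in mesenchymal mutants, against 1.56 to 3.92 and 2.79 to 4.91 FPKM in the non-mesenchymal controls and mutants of that model. Adamtsl3 was at 31.2, 17.7 and 48.1 FPKM and 33.0, 31.6, 33.3 and 41.7 FPKM, against at most 1.09 FPKM in non-mesenchymal H19DMD libraries. Their differences in controls were 3.17 ± 0.37 and 4.60 ± 0.42 (adjusted p = 0.00213 and 0.000872, limma). In the Igf2 model the third mutant library held the highest non-mesenchymal value of both, 11 FPKM of Adamtsl1 and 2.80 FPKM of Adamtsl3.

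Adamtsl4, which binds fibrillin, was less separated. It was at 39.1, 27.5 and 26.6 FPKM in mesenchymal controls and 25.8, 83.5, 20.3 and 52.4 FPKM in mesenchymal mutants. Non-mesenchymal H19DMD libraries held 9.12, 1.78 and 10.4 FPKM in controls and 4.96, 11.2, 10.7 and 19.2 FPKM in mutants, and those of the Igf2 model held 8.35 to 16.1 FPKM. Its difference in controls was 2.21 ± 0.57 (adjusted p = 0.0403, limma), a call lost without any mesenchymal control or without the first non-mesenchymal control (adjusted p at most 0.118), and also with no filter, with median-ratio scaling and with the replicate block. In mutants it was 1.81 ± 0.51 (adjusted p = 0.0314, limma), and 5 of the 8 libraries, each left out in turn, ended that call (adjusted p at most 0.0773): the second and the last mesenchymal and the first 3 non-mesenchymal ones. Adamtsl5 averaged 21.4 ± 5.42 against 0.0781 ± 0.0747 FPKM in controls (adjusted p = 0.000206, limma). Non-mesenchymal controls of the Igf2 model held 0.0951, 0.880, 6.70 and 6.73 FPKM of Adamtsl5.

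Lox, Loxl1 and Loxl2 had fraction differences well above the median of the members. Lox, the founding enzyme, was at 59.9, 77.1 and 66.8 FPKM in mesenchymal controls and 76.6, 70.8, 79.0 and 60.9 FPKM in mesenchymal mutants. In non-mesenchymal cells it was at 1.83, 0.952 and 1.01 FPKM in H19DMD controls and 0.781, 1.19, 0.960 and 0.884 FPKM in mutants. The Igf2 model gave 1.00, 1.86, 2.2 and 2.17 FPKM in controls and 0.828, 0.605 and 1.97 FPKM in mutants. The difference was 4.94 ± 0.22 in controls (adjusted p = 0.000102, limma) and 5.22 ± 0.15 in mutants (adjusted p = 9.2e-07, limma).

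Loxl2, which also crosslinks basement membrane collagen, was at 45.5, 46.7 and 52.9 FPKM in mesenchymal controls and 56.3, 52.8, 38.6 and 41.3 FPKM in mesenchymal mutants. Non-mesenchymal libraries held 1.18 to 2.47 FPKM in H19DMD controls, 1.23 to 2.43 FPKM in H19DMD mutants and 1.43 to 3.59 FPKM in the Igf2 model. Loxl3 was at 14.2, 34.8 and 25.6 FPKM and at 16.2, 41.0, 33.1 and 33.3 FPKM in mesenchymal controls and mutants, against 0.902 to 7.92 FPKM in non-mesenchymal H19DMD libraries and 2.97 to 18.6 FPKM in those of the Igf2 model. Both passed in both genotypes, with control differences of 4.16 ± 0.22 and 2.95 ± 0.46 (adjusted p = 0.000166 and 0.00637, limma). Of the exon bases of Loxl3, 11.6% overlap Htra2 on the opposite strand. Loxl1, linked to elastin assembly, averaged 17.9 ± 2.26 against 0.558 ± 0.255 FPKM in controls (adjusted p = 0.000245, limma). Loxl4 averaged 6.16 ± 5.69 against 0.583 ± 0.407 FPKM, which did not pass (adjusted p = 0.0623, limma; 0.0124 with all groups of the table in 1 fit), with 1 mesenchymal control at 12.7 FPKM and the other two at 2.69 and 3.06 FPKM.

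**Figure D3:**
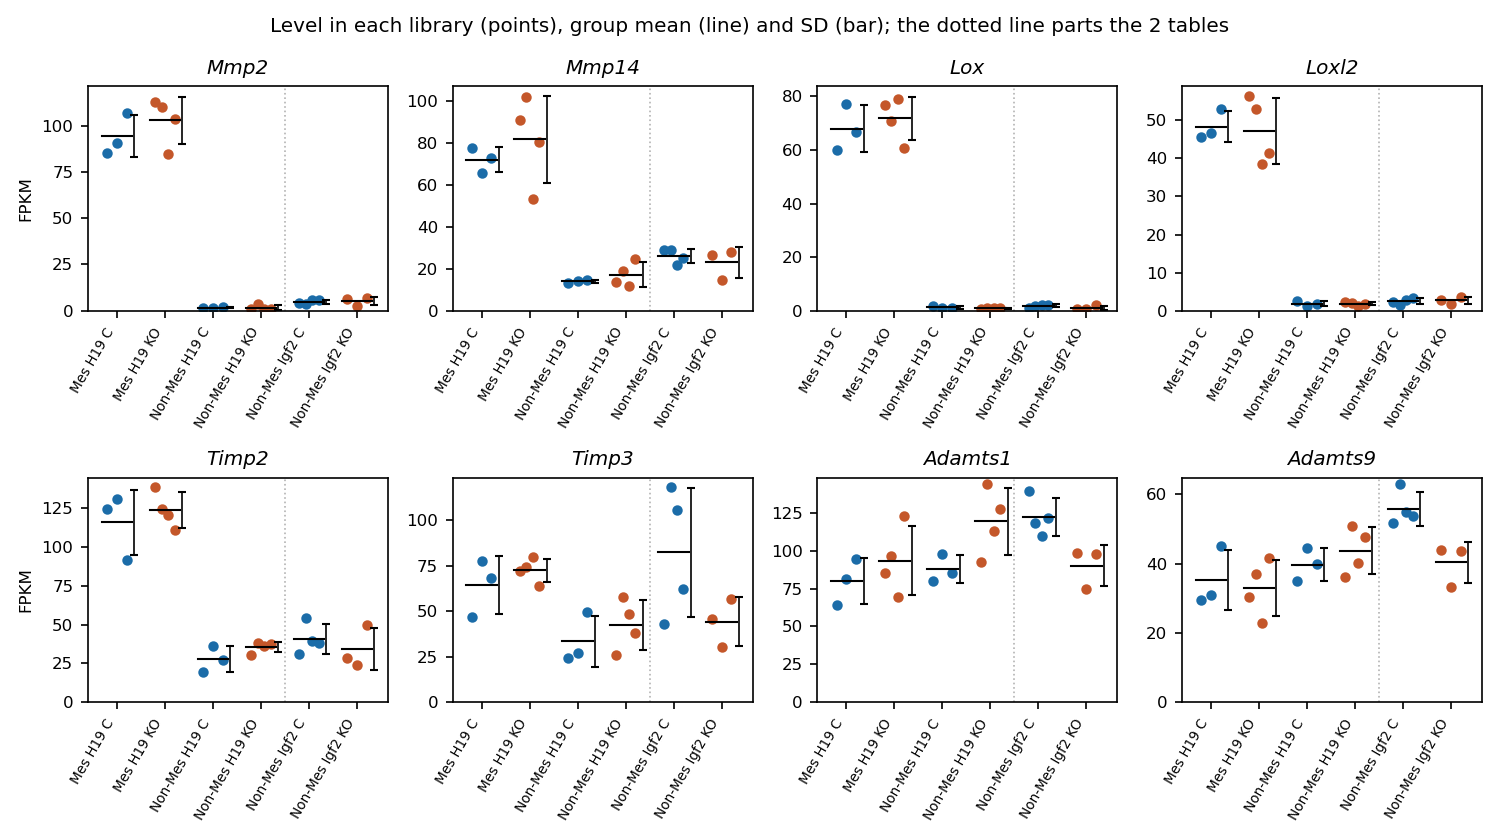
FPKM of 8 members in each library (points; blue for controls, orange for mutants), with the group mean (line) and SD (bar), in 6 groups. Mmp2, Lox and Loxl2 are high only in the 7 mesenchymal libraries shown, Mmp14 and Timp2 are present in both fractions at unequal levels, and Timp3, Adamts1 and Adamts9 have overlapping levels in the fractions of the controls.

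The makeup of the family therefore differed by fraction. Timp2, Mmp2, Adamts1, Mmp14 and Mmp16 held 36.6% of the summed FPKM of the members in mesenchymal controls, whereas Adamts1, Adamts9, Timp3, Timp2 and Adamts16 held 70.1% in non-mesenchymal H19DMD controls. Of the 56 members 33 averaged at least 5 FPKM in mesenchymal controls and 9 in non-mesenchymal H19DMD controls. The coefficient of variation between libraries, over members of at least 5 FPKM, had a median of 18.4% in mesenchymal controls and 30.3% in non-mesenchymal H19DMD controls. Mesenchymal markers were present in the non-mesenchymal libraries at the sums given above, and their part in the low levels of Mmp2 or Lox there was not tested. In non-mesenchymal H19DMD controls most of each sum was Vim, at 103 to 156 of 168 to 204 FPKM. Col3a1 was at 6.12 to 21.7 FPKM in those libraries and at 1185 to 1540 FPKM in mesenchymal controls.

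Genes that act with these enzymes were read from lists written with earlier results of these data known, by their counts in the fractions of H19DMD controls, where 12.4% of all genes were higher and 10.3% lower. All 12 tested matrix substrates were higher in mesenchymal cells, led by Col3a1 (1401 against 12.7 FPKM), Col1a1 (883 against 8.26 FPKM) and Col1a2 (916 against 8.43 FPKM), the fibrillar collagens. Of 9 tested collagen-modifying genes 6 were higher and 0 lower, led by P4ha2, a prolyl hydroxylase, at 53.2 against 4.54 FPKM, Serpinh1, the collagen chaperone, at 125 against 13.7 FPKM, and Plod2, a lysyl hydroxylase, at 122 against 23.6 FPKM. Of 4 tested procollagen C-proteinases and enhancers 3 were higher, led by Pcolce at 182 against 5.28 FPKM and Bmp1 at 36.2 against 5.74 FPKM. Of 9 other regulators 5 were higher, led by Thbs2 (59.6 against 1.11 FPKM), the clearance receptor Lrp1 (123 against 6.28 FPKM) and the membrane inhibitor Reck (47.4 against 4.89 FPKM), and 1, Spock1, was lower. In plasminogen activation the activator Plat (23.0 against 0.353 FPKM) and the inhibitor Serpine2 (77.5 against 7.68 FPKM) were higher, and the receptor Plaur was lower (3.57 against 9.54 FPKM). Of 8 ADAM proteases 5 were higher, led by Adam33 (107 against 2.17 FPKM), Adam12 (74.5 against 2.40 FPKM) and Adam19 (40.1 against 5.53 FPKM), and the leukocyte gene Adam8 was lower. Of 6 cathepsin genes, Ctsk and Ctsl were higher and Ctss and the inhibitor Cst3 were lower. In mutants, where 13.5% of all genes were higher and 15.1% lower, the counts were 12 higher of 12 substrates, 6 higher and 1 lower of 9 collagen-modifying genes and 3 higher of 4 procollagen proteinases and enhancers. There 5 of 8 other regulators were higher and 1 lower, 3 of 8 ADAM proteases higher and 0 lower, and 1 of 6 cathepsin genes higher and 3 lower. All the calls in this paragraph are at an adjusted p under 0.05 by limma, over all genes.

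The second question was whether H19DMD mutants differed from controls within mesenchymal cells. No member passed the adjusted threshold by limma (0 of 38 tested, where 0.0694% of 15856 genes did), and 3 had an unadjusted p under 0.05, where 4.76% of all genes did. The median difference of the tested members was -0.05, and that of all genes -0.07. The groups did not overlap for 5 members (5.39% of all genes): Adamts5 was higher in mutants and Adamts15, Adamts20, Adamts2 and Adamts3 were lower (1.62% and 3.77% of all genes). The 95% interval reached at least 0.39 to either side of a member's estimate, with a median of 0.61. Among abundant members the intervals were -0.31 to 0.53 for Timp2, -0.28 to 0.52 for Mmp2, -0.36 to 0.77 for Adamts1, -0.43 to 0.71 for Mmp14 and -0.31 to 0.47 for Lox.

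Adamts15 was at 7.03, 9.21 and 7.99 FPKM in mesenchymal controls and 4.73, 5.69, 3.5 and 4.98 FPKM in mesenchymal mutants. Each mutant library stood below each control, a difference of -0.67 ± 0.21 (unadjusted p = 0.0158, adjusted p = 0.927, limma, 4 of 4 mutants below the controls). Adamts2 was at 35.1, 25.3 and 32.6 FPKM in controls and 19.1, 23.7, 16 and 24.0 FPKM in mutants. It too separated the groups, by -0.57 ± 0.21 (unadjusted p = 0.0309, adjusted p = 0.927, limma). Neither passed the adjustment over all genes under any setting tried (adjusted p from 0.614 to 0.998 for Adamts15). Mmp17, a membrane-bound protease, was at 5.83, 2.16 and 6.98 FPKM in controls and 2.35, 1.13, 1.03 and 1.21 FPKM in mutants, with overlap (unadjusted p = 0.0176, adjusted p = 0.927, limma). The smooth muscle and pericyte marker sum ran from 483 to 820 FPKM in these controls and from 147 to 747 FPKM in the mutants, with overlap. The mesothelial sum was 149 to 331 FPKM in controls and 100.1 to 151 FPKM in mutants, with 2 of its 5 genes at an unadjusted p under 0.05 and 0 past the adjustment by limma. The part of either list in these values was not tested.

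In the non-mesenchymal cells of the H19DMD model, again no member passed (0 of 29 by limma, where 0.0677% of 16239 genes did), none had an unadjusted p under 0.05 (5.35% of all genes), and none had groups without overlap (5.68% of all genes). The median difference was 0.32 over the tested members and 0.05 over all genes, with 23 members above 0 and 6 below. Adamts1 came nearest, at 0.42 (95% interval -0.02 to 0.86, unadjusted p = 0.0572, adjusted p = 0.894, limma). The acinar marker sum was 37765 to 101970 FPKM in these controls and 44970 to 62907 FPKM in the mutants. The mesenchymal sum was 168 to 204 and 161 to 283 FPKM. Differences were below 0 for 8 of 8 acinar genes and above 0 for 6 of 7 mesenchymal markers and 9 of 10 matrix substrates. None of these genes had an unadjusted p under 0.05, and the part of these 3 lists in the members' values was not tested. The neutrophil marker sum was 94.9 to 274 FPKM in controls and 407 to 733 FPKM in mutants, and that of other leukocytes 186 to 203 and 68.7 to 174 FPKM, neither with overlap. The erythroid sum was 23.2 to 99.1 FPKM in controls and 48.9 to 339 FPKM in mutants, and the endocrine sum 19937 to 30004 and 11279 to 20542 FPKM. The ductal sum was 953 to 1482 and 1055 to 1844 FPKM and the macrophage sum 151 to 360.5 and 196 to 524 FPKM, each list with 7 of 7 genes above 0 in difference and 0 at an unadjusted p under 0.05. Of the neutrophil, other leukocyte, erythroid and endocrine lists 4 of 7, 5 of 7, 3 of 5 and 3 of 10 tested genes had an unadjusted p under 0.05 and 0 passed the adjustment by limma, and their part in the members' values was not tested.

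Deletion of Igf2 in mesenchyme was compared with its controls in non-mesenchymal cells. None of 34 tested members passed (0 by limma, where 0.0631% of 17441 genes did), and 6 had an unadjusted p under 0.05, where 5.28% of all genes did. The groups did not overlap for 5 members (6.02% of all genes), with Mmp7 higher in mutants (2.65% of all genes) and Adamts1, Adamts9, Adamts15 and Loxl4 lower (3.37%). The median difference was -0.22 over the tested members and -0.03 over all genes. The acinar marker sum was 82190 to 95018 FPKM in the 3 mutants and 28347 to 40497 FPKM in the 4 controls, and 7 of 9 tested acinar genes had an unadjusted p under 0.05. Other lists had at most 1 such gene: differences were above 0 for 7 of 7 macrophage and 7 of 8 neutrophil genes, and below 0 for 7 of 8 mesenchymal, 5 of 5 erythroid and 6 of 6 neural genes. The part of any list in the values below was not tested.

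Adamts1 and Adamts9, by the values given above, were lower in each of 3 mutants than in each of 4 controls, with means of 90.1 ± 13.4 against 122 ± 12.6 FPKM and 40.3 ± 6.02 against 55.8 ± 4.87 FPKM (SD). Their differences were -0.44 ± 0.16 and -0.47 ± 0.16 (unadjusted p = 0.0296 and 0.0225, adjusted p = 0.919 for both, limma). Adamts15 was at 4.33, 3.64, 3.96 and 4.46 FPKM in controls and 2.27, 1.98 and 3.11 FPKM in mutants. It differed by -0.57 ± 0.23 (unadjusted p = 0.0407, adjusted p = 0.919, limma). Loxl4 was at 1.59, 2.68, 1.40 and 3.93 FPKM in controls and 0.937, 0.335 and 0.479 FPKM in mutants, a difference of -1.06 ± 0.38 (unadjusted p = 0.0275, adjusted p = 0.919, limma). Mmp7, a small secreted protease of epithelia, was at 0.160, 0, 0 and 0 FPKM in controls and 11, 0.628 and 1.17 FPKM in mutants. It passed the filter of 1 FPKM only through the first mutant library, without which it was not tested, so its place among the 6 and the 5 members counted above rests on that library. Mmp23, whose groups overlapped, averaged 3.52 ± 1.47 against 7.29 ± 3.0 FPKM (unadjusted p = 0.0484, adjusted p = 0.919, limma).

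**Figure D4:**
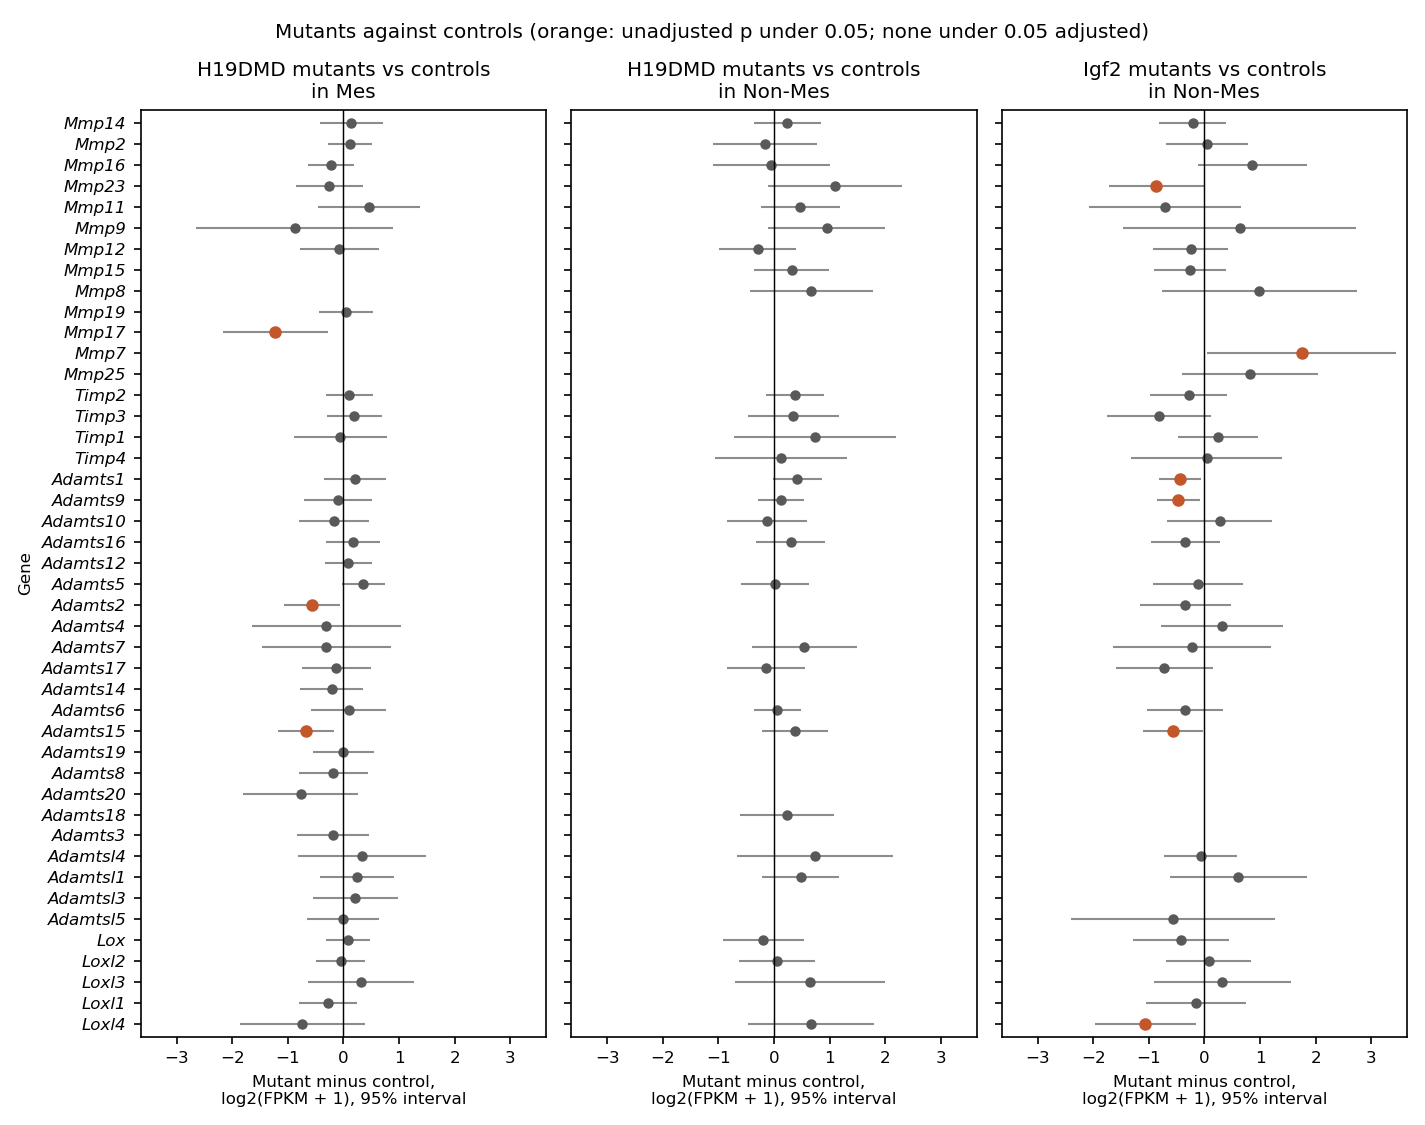
Difference between mutants and controls for each tested member, on the log2(FPKM + 1) scale with 95% intervals, in the mesenchymal and non-mesenchymal cells of the H19DMD model and the non-mesenchymal cells of the Igf2 model. Orange points had an unadjusted p under 0.05 (3, 0 and 6 members), and none had an adjusted p under 0.05.

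The difference between fractions was also set against genotype in 1 fit of the H19DMD table. No member passed for this interaction (0 of 39 by limma, where 0.0117% of 17105 genes did), and 4 had an unadjusted p under 0.05 (6.35% of all genes): Adamts15, Mmp17, Mmp23 and Loxl1. Adamts15 had the smallest p of the members, with a fraction difference that was lower in mutants than in controls (-1.05 ± 0.29, unadjusted p = 0.00365, adjusted p = 0.736, limma). It averaged 8.08 ± 1.09 and 4.73 ± 0.91 FPKM in mesenchymal controls and mutants, and 2.08 ± 0.54 and 3.01 ± 0.72 FPKM in the non-mesenchymal ones. Among the members tested in both genotypes, those called in 1 only (Adamts15, Adamts20 and Adamts7 in controls; Mmp11, Mmp12, Mmp8, Mmp9 and Timp3 in mutants) are therefore not shown to differ between genotypes, and Adamts7 was called in mutants too without the third mesenchymal mutant. Mmp17 was called in controls and was under the filter for mutants.

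Mmp8 and Mmp9, the collagenase and gelatinase stored in neutrophil granules, differed widely between the non-mesenchymal libraries. Mmp8 was listed at 0 in all 7 mesenchymal libraries. In non-mesenchymal cells it was at 0.445, 2.06 and 3.68 FPKM in H19DMD controls and 2.94, 4.39, 1.78 and 5.25 FPKM in H19DMD mutants. Those of the Igf2 model held 14.4, 3.94, 1.72 and 1.97 FPKM in controls and 15.3, 13.4 and 3.11 FPKM in mutants. Mmp9 in the same order of Igf2 libraries was at 40.7, 4.24, 6.56 and 6.16 FPKM and at 29.5, 25 and 4.37 FPKM. The first control and the first 2 mutants were thus high for both genes, and neither gene separated the genotypes (adjusted p = 0.919 and 0.951, limma). Summed FPKM of 8 neutrophil markers was 2235, 708, 172 and 522 in those controls and 2430, 1614 and 537 in those mutants, high in the same 3 libraries, and it was 94.9 to 733 in the H19DMD non-mesenchymal libraries and 0.580 to 8.80 in mesenchymal ones. The fraction difference of Mmp8 was -1.46 ± 0.50 in controls (adjusted p = 0.0925, and 0.021 without the first non-mesenchymal control) and -2.13 ± 0.32 in mutants (adjusted p = 0.00136, limma). Mmp9 was at 0.386, 2.51 and 3.32 FPKM in mesenchymal controls, where neutrophil markers were that low. Its fraction difference was -0.12 ± 0.62 in controls (adjusted p = 0.917) and -1.95 ± 0.57 in mutants (adjusted p = 0.0358, limma), a call lost on leaving out any 1 library other than the first mesenchymal mutant (adjusted p at most 0.0929) and with the replicate block. The part of neutrophils in these levels was not tested.

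**Figure D5:**
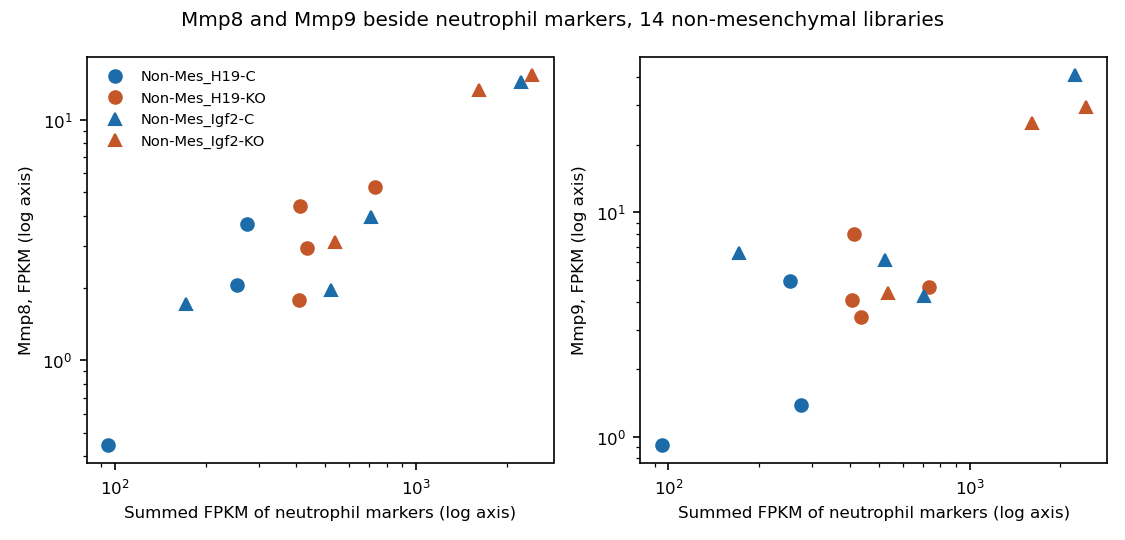
Mmp8 and Mmp9 (FPKM, log axis) against the summed FPKM of 8 neutrophil markers (log axis) in 14 non-mesenchymal libraries, by model (circle, triangle) and genotype (blue, orange). The 3 libraries of the Igf2 model with marker sums of 1614 to 2430 hold 13.4 to 15.3 FPKM of Mmp8 and 25 to 40.7 FPKM of Mmp9, above all the others.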

How the data were processed

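RNA from sorted pancreatic fractions was amplified from total RNA and sequenced as single reads, per the labels' protocols. The authors deposited 1 table of FPKM values per model, per the file headers. TopHat2 2.0.8 and Cufflinks 2.2.1 with GRCm38 are named in the submitters' processing notes, with no account of their settings. Of 31 samples, 21 had values; 8 columns held none, and 10 samples were not analysed here. Groups came from the labels.

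A gene entered a fit where it averaged 1 FPKM or more across its libraries, and was tested as log2(FPKM + 1) with limma 3.58.1 (R 4.3.3; variance trend, Benjamini-Hochberg over all genes, threshold 0.05), within each table, and the fit was checked on simulated data. A fold on this scale understates the change of low genes. Single members also had an exact two-sided permutation test. Values with ± are the SD of FPKM or, for differences, the SE. Alternatives changed the pseudocount, filter, locus length, scaling, variance model, samples fitted, replicate block and each library. Members with a group mean of at least 5 FPKM were named, per-library values were given for the top 3 of each family and for members whose mutant and control libraries did not overlap at an unadjusted p under 0.05, and at most 3 genes were named per list and direction. Per-library values of Mmp8 and Mmp9, and Mmp17, Mmp23 in the Igf2 model and the members listed only by call were named after their values were seen. The count for the plasminogen activation list is not reported here. The members and lists were chosen with earlier results of these data known. Coordinates are from GENCODE M21 (GRCm38).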

Additional observations from a re-analysis of the deposited data

Results flagged for a closer look

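In groups of 4 libraries, 8 of 93 sets of values had 1 library that stood apart from the other 3 by more than Dixon's 95% critical value, and chance alone does so in about 1 in 20. In the second non-mesenchymal H19DMD mutant, Mmp2 was at 3.54 FPKM (others 0.809 to 1.11). Mmp9 was at 4.15 FPKM in the first mesenchymal H19DMD mutant, with 0 in the other three, and at 40.7 FPKM in the first non-mesenchymal Igf2 control (others 4.24 to 6.56). The fourth mesenchymal H19DMD mutant held 3 of the 8: Adamts4 at 58.4 FPKM (others 12.2 to 15.4), Adamtsl3 at 41.7 FPKM (31.6 to 33.3) and Adamts6 at 2.08 FPKM (3.51 to 3.73). Adamts5 was at 33.5 FPKM in the third mesenchymal H19DMD mutant (28.2 to 28.9), and Adamts16 at 33.5 FPKM in the second non-mesenchymal Igf2 control (19.9 to 21.7).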

How the results depend on the processing

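Read depth is unknown, so which low values are sampling noise cannot be said. Members called between fractions numbered 27 to 30 in controls and 26 to 29 in mutants when 1 library was left out (29 and 30 with all), and 23 to 33 and 23 to 34 under other settings. Lower calls were 0 in both genotypes at a mean of at least 5 FPKM, where fewer genes are tested, 2 in controls with all groups in 1 fit and 6 in mutants without a filter, and 1 to 2 and 2 to 3 with a library left out. In controls, the difference of Mmp9 ran from -0.445 to 0.375 with 1 library left out, above 0 without the first mesenchymal (0.375) or the second non-mesenchymal control (0.369), and that of Adamts1 from -0.273 to 0.003, the last without the first mesenchymal control. Median-ratio scaling moved the median of all genes by -0.11 in controls and by 0.11 for the interaction. It changed no direction of a member recomputed under it. No member was called in a mutant comparison or for the interaction under any setting run.

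Over all genes, 2448 and 3148 were called between fractions at a mean of at least 5 FPKM (2813 to 3256 and 3892 to 4638 with 1 library left out). With all groups of the table in 1 fit 5 genes were called in mesenchymal and 1 in non-mesenchymal H19DMD mutants. For the interaction 6 were called at a pseudocount of 0.1 and 6 with no filter. Leaving out 1 library gave 13 to 27 genes in mesenchymal H19DMD, 14 to 34 in non-mesenchymal H19DMD, 14 to 37 in non-mesenchymal Igf2 mutants and 2 to 9 for the interaction. The causes were not tested.

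Deviations of same-numbered libraries from the sorted fractions correlated at 0.011 to 0.082, all above 0. Those of same-numbered mutants and controls correlated at -0.054 to 0.051. Such small values cannot settle whether the numbers pair the fractions, and the main fits did not pair them. With the replicate number as a block (which drops the unmatched library of an unequal comparison), 27 members were called in controls and 27 in mutants, 17 genes in Igf2 mutants and 4 for the interaction, with 0 members in each mutant comparison. A joint fit was not run for the Igf2 table, which has values for only 2 groups.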
